A study of Arabidopsis thaliana with 19 samples.

Results

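Histone H3 monomethylated at lysine 27 (H3K27me1) was mapped in sperm of Arabidopsis thaliana by chromatin immunoprecipitation and sequencing, and the 13130 narrow H3K27me1 peaks on chromosomes 1 to 5 are described here, out of 55303 narrow peaks of 4 histone marks in the series. All narrow peaks of the mark on these chromosomes were taken, with no further choice. There were 2 immunoprecipitations with an antibody from Millipore. By their descriptions, replicate 1 came from input chromatin preparation 1 and replicate 2 from preparation 3 of input set A. The descriptions give both immunoprecipitations the same number, so the replicate numbers here are those of the titles. The descriptions of the H3K4me3, H3K27ac and H3K27me3 immunoprecipitations name preparations of set A as well. All samples were of ecotype Col-0, labelled wild type, and came from sperm nuclei sorted by fluorescence from a ProHTR10:HTR10-Clover line, in which the promoter of the sperm histone gene HTR10 drives its own product fused to a fluorescent protein. Mononucleosomes were released with micrococcal nuclease and sequenced in paired reads of 50 bp. H3K4me3 and H3K27ac, with 3 immunoprecipitations each, and H3K27me3, with 2, serve for comparison.

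In plant nuclei H3K27me1 is laid down during DNA replication by the methyltransferases ATXR5 and ATXR6, which act on the replication-dependent histone H3.1, and it is best known from silent, transposon-rich heterochromatin around the centromeres. Trimethylation of the same lysine is the work of Polycomb repressive complex 2 and marks repressed genes. H3K4me3 and H3K27ac are found at the starts of transcribed genes. In sperm the variant H3.10 takes the place of H3.1, and the maps address where H3K27me1 lies in such nuclei.

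The authors deposited 1 list of peaks for both replicates together, so no value below has a replicate error, no test between samples was possible, and the depth of the libraries is unknown. Each peak has a fold, the ratio of immunoprecipitation to control at the peak as the authors' caller gave it and the labels do not say which input libraries served as its control. The fold ranked peaks within this list. It was not compared in size with that of other marks as a measure of abundance.

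H3K27me1 lay under peaks over 24.5 Mb, or 20.6% of the 119.1 Mb of the 5 chromosomes. The peaks were of modest fold and very unequal width. The fold had a median of 2.22, with quartiles at 1.93 and 2.60, and ran between 1.35 and 5.56. The width had a median of 1008 bp, with quartiles at 584 and 1889 bp, and the widest peak measured 59528 bp. For comparison, the widths of the other narrow lists had a median of 841 bp for H3K4me3, 519 bp for H3K27ac and 592 bp for H3K27me3, and their widest peaks measured 8117, 4616 and 9870 bp.

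A small share of wide peaks held much of the marked sequence. The 1033 peaks of at least 5 kb were 7.87% of the peaks and covered 9.45 Mb, whereas the 6525 peaks narrower than 1 kb covered 3.96 Mb. Wide peaks also had higher folds. The median fold was 1.98 below 1 kb, 2.38 between 1 and 2 kb, 2.61 between 2 and 5 kb, 2.77 between 5 and 10 kb and 2.83 in the 284 peaks of at least 10 kb. Across all 13130 peaks Spearman's rho of fold and width was 0.653, and it was 0.662 among pericentromeric and 0.640 among arm peaks. These points come from the same pooled libraries, and fold and width were both read from the same signal, so rho is given as a description only.

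Position along the chromosome set the peaks apart in width, number and coverage more than in fold. Pericentromeres, taken as the longest run of 500 kb windows per chromosome in which protein-coding genes cover under 31.1% of bases, covered 18.0% of the chromosomes and contained 53.0% of all H3K27me1 peak bases. Of the pericentromeric sequence 60.5% lay under peaks, against 11.8% of the arms. The median peak was 1898 bp wide in pericentromeres and 868 bp on arms, with a median gap to the next peak of 773 bp in pericentromeres and 4413 bp on arms. The median fold was 2.34 in the 3806 pericentromeric peaks and 2.17 in the 9324 arm peaks.

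The same order held on each of the 5 chromosomes. In pericentromeres 49.4%, 61.2%, 66.4%, 66.6% and 59.2% of bases lay under peaks on chromosomes 1 to 5, against 11.2%, 12.7%, 10.6%, 15.0% and 10.7% on their arms. The median folds of pericentromeric peaks were 2.35, 2.39, 2.32, 2.34 and 2.36 on chromosomes 1 to 5, against 2.16, 2.15, 2.18, 2.17 and 2.18 for arm peaks. The median fold of pericentromeric peaks over that of arm peaks was 1.08 in the narrow list. In the broad H3K27me1 list, kept as a check, 24.9% of the bases were pericentromeric. The same ratio was 0.982 there, but whether the folds of the broad list belong to the coordinates beside them is unsure.

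**Figure D1:**
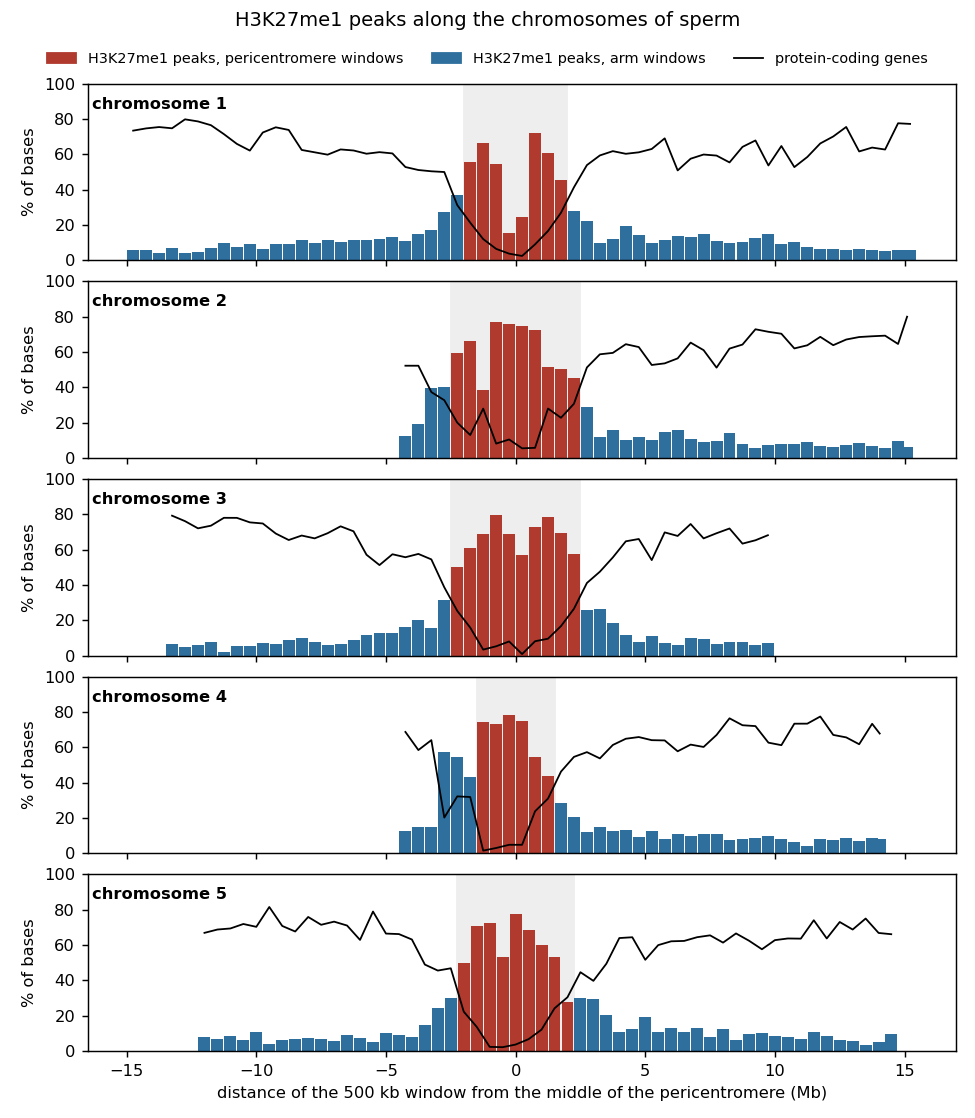
Share of bases under H3K27me1 peaks (bars) and in protein-coding genes (line) in 500 kb windows, by distance from the middle of the pericentromere in Mb, 1 panel per chromosome. Pericentromere windows (red, grey background) reach 79.5%, arm windows (blue) have a median of 9.40%, and the short arms of chromosomes 2 and 4 hold the arm windows of highest coverage.

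Among 43 pericentromeric windows the share of bases under peaks had a lowest value of 15.3%, a median of 61.1% and a highest of 79.5%. In 197 arm windows the lowest was 2.28%, the median 9.40% and the highest 57.5%, and 176 arm windows lay below 20%. The ranges overlap, while the medians lie far apart. The highest window, on chromosome 3 between 12500001 and 13000000 of the build TAIR10, held 120 peaks and 15 protein-coding genes. The lowest pericentromeric windows were the neighbours on chromosome 1 at 14500001 to 15000000, with 15.3%, and at 15000001 to 15500000, with 24.8%, both among the poorest in protein-coding genes, with 6 and 4. The shares are of all bases, and how much of these windows reads could be placed on was not assessed.

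Over all 240 windows, the share under H3K27me1 and the share in protein-coding genes had a Spearman's rho of −0.888. The coefficient was −0.530 within pericentromeric and −0.806 within arm windows. Neighbouring windows share sequence composition and all share the same libraries, and the pericentromeres were themselves drawn from gene density.

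On the arms the coverage was graded with distance. It was 29.8% within 1 Mb of the pericentromere, 16.6% between 1 and 2 Mb, 11.7% between 2 and 4 Mb, 9.87% between 4 and 6 Mb, 8.38% between 6 and 8 Mb and 6.92% farther out. The number of peaks went the same way, with 164 peaks per Mb in the first of these zones and 72.0 in the last. The median fold was 2.25 in the first zone and lay between 2.13 and 2.17 in the others, so the gradient was one of number and width more than of fold.

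The 5 arm windows of highest coverage all lay on the short arms of chromosomes 4 and 2. On chromosome 4 the window from 1500001 to 2000000 had 57.5% of its bases under peaks, that from 2000001 to 2500000 had 54.5%, and that from 2500001 to 3000000 had 43.3%. On chromosome 2 the windows from 1500001 and from 1000001 had 40.3% and 39.6%. The first of the windows on chromosome 4 lies farthest from the pericentromere of the 3, with 2 windows of lower coverage between them, and protein-coding genes covered 20.2% of it, which is below the threshold set for pericentromeres.

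Peaks were often strung into longer domains. Joining peaks no more than 1 kb apart gave 9343 runs, of which 203 were longer than 20 kb, 189 of them in pericentromeres, and 40 were longer than 50 kb, 38 of them in pericentromeres. The longest run measured 115 kb, held 23 peaks and lay at chr3:12671733-12786905. The next, of 108 kb, lay at chr4:3546669-3655066. The 5 longest arm runs were all on chromosome 4 within the windows named above, the first at chr4:2038065-2112442 with 74.4 kb and 16 peaks.

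**Figure D2:**
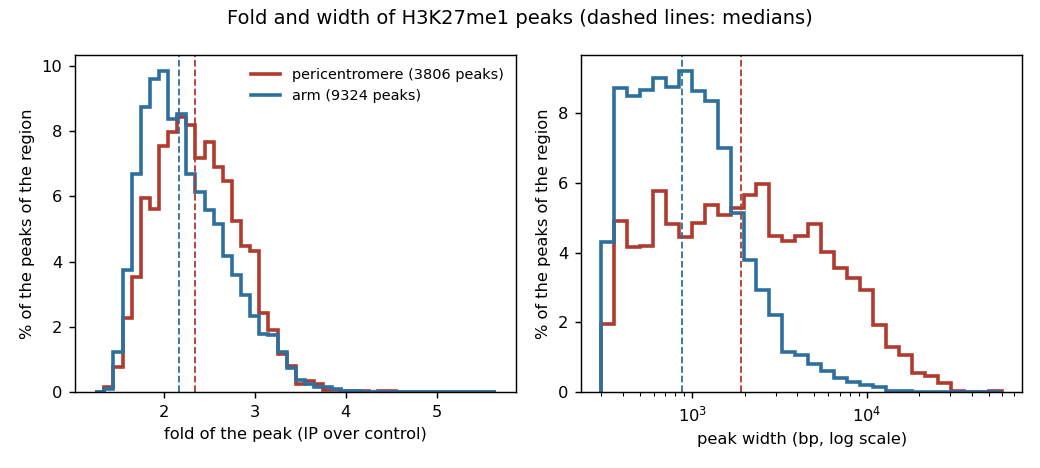
Distribution of the fold (left) and of the width in bp on a log axis (right) over H3K27me1 peaks, as a percentage of the 3806 pericentromeric peaks (red) and of the 9324 arm peaks (blue), with dashed lines at the medians. The width distributions lie farther apart, with medians of 1898 and 868 bp, than the fold distributions, with medians of 2.34 and 2.17.

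The 5 widest peaks touched pseudogenes and transposon genes, besides 1 protein-coding gene, AT4G06526. The widest, chr5:11047243-11106770, had a fold of 2.63 and touched 16 annotated genes. The second, chr4:1804688-1838667, lay on the arm in the window of highest arm coverage, with a fold of 2.48 and 9 genes. The other three of the 5 widest were chr4:3307172-3338351 with a fold of 1.96, chr3:13924709-13953898 with 2.80 and chr5:11387291-11415858 with 3.01. None of them was among the 5 peaks of highest fold.

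Peaks of high fold lay in both regions. A fold of at least 3 was reached by 369 of 3806 pericentromeric peaks (9.70%) and by 722 of 9324 arm peaks (7.74%), and a fold of at least 4 by 4 pericentromeric and 5 arm peaks. The highest fold, 5.56, belonged to chr1:8791110-8791833, a peak of 724 bp inside the pseudogene AT1G24938 on the arm. The second, 4.53 at chr4:5583294-5584663, touched no annotated gene, and the next, 4.52 at chr3:3558470-3559886, lay on the protein-coding gene AT3G11350. Below these came chr2:3367762-3368203 on the transcribed pseudogene AT2G07699, with 4.38, and chr5:11697320-11706237 with 4.15, which touched the pseudogenes AT5G31753 and AT5G31770.

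The summits, the positions of highest signal in each peak, lay in different features by region. Pericentromeres were chosen for a low share of protein-coding bases, so fewer summits in protein-coding genes there follows in part from that choice. In pericentromeres 34.3% of summits were in pseudogenes or transposon genes, 13.4% in protein-coding genes, 1.60% in RNA genes and 50.7% in no annotated gene. On arms 6.81% were in pseudogenes or transposon genes, 68.6% in protein-coding genes, 1.52% in RNA genes and 23.1% in no annotated gene. As background, the median share of protein-coding bases over all 500 kb windows, arms and pericentromeres together, was 62.3%. The shares of sequence in the other features were not computed. Peaks with their summit in a pseudogene or transposon gene had the highest median fold and width of the 4 classes, 2.47 and 2275 bp, against 2.17 and 862 bp for summits in protein-coding genes. The difference in fold was also present on arms alone, with 2.55 for pseudogenes and transposon genes and 2.16 for protein-coding genes. Ordered by fold in 5 equal groups of 2626 peaks, the share of summits in pseudogenes and transposon genes was 6.78%, 9.98%, 13.9%, 19.1% and 24.1%.

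A gene was called marked when at least 150 bp of it, about 1 nucleosome, lay under narrow H3K27me1 peaks. Of 4843 pseudogenes and transposon genes 3655 were marked, which is 75.5%. The annotation used keeps transposon genes in its pseudogene classes, so the groups could not be split. Of 27444 protein-coding genes 7370 were marked, which is 26.9%, and of 5612 RNA genes 752, which is 13.4%. In pericentromeres 85.5% of pseudogenes and transposon genes and 52.9% of protein-coding genes were marked. On arms 56.4% of pseudogenes and transposon genes and 25.3% of protein-coding genes were marked. The broad list marked 461 of the 4843 pseudogenes and transposon genes and 2412 of the 27444 protein-coding genes, so the classes hardly differed there.

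The classes also differed in how much of a marked gene was covered. Of the marked pseudogenes and transposon genes 68.9% had at least 90% of their length under peaks, against 14.4% of the marked protein-coding genes. The median covered share of marked protein-coding genes was 93.9% in pericentromeres and 48.8% on arms. Marked arm genes thus usually carried the mark on a stretch of the gene, and marked pericentromeric genes over nearly their whole length. The median of the highest fold per marked gene was 2.67 for pseudogenes and transposon genes and 2.25 for protein-coding genes, and for protein-coding genes it was 2.57 in pericentromeres and 2.22 on arms.

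Within the pseudogene classes, 3211 of 3917 genes annotated as pseudogene were marked (82.0%), against 444 of 926 annotated as transcribed pseudogene (47.9%). Of these 2874 and 299 lay in pericentromeres, and the median lengths were 2043 and 781 bp, so class goes together with region and length. In pericentromeres 2309 of the 2874 and 197 of the 299 had at least 50% of their length under peaks. Among RNA genes, 548 of 3480 long noncoding RNAs (15.7%) and 35 of 326 microRNA genes (10.7%) were marked. Of the microRNA genes 168 are shorter than the minimum of 150 bp, and of the 158 others 22.2% were marked. None of 625 tRNA genes could reach the minimum of 150 bp, since all are shorter. By the share of the gene instead, 11 tRNA genes (1.76%), 4 of 287 snoRNA genes (1.39%) and 57 microRNA genes (17.5%) had at least 50% of their length under peaks, against 14.1% of protein-coding genes and 73.8% of genes annotated as pseudogene.

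The length of arm protein-coding genes went with the share marked, in no single direction. It was 15.3% of genes below 0.5 kb, 22.6% at 0.5 to 1 kb, 29.4% at 1 to 2 kb, 25.8% at 2 to 3 kb, 25.1% at 3 to 5 kb and 14.7% above 5 kb. In the longest class the median covered share of a marked gene was 23.9%, against 53.6% at 1 to 2 kb.

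Inside marked arm genes H3K27me1 lay away from the gene ends. In 5544 marked genes of 1 to 5 kb, with both ends pooled because the annotation gives no strand, 21.7% of bases lay under H3K27me1 peaks within 250 bp inside an end. The share was 45.7% from 250 to 500 bp, 56.6% from 500 to 1000 bp, 51.9% from 1000 to 1500 bp and 42.7% from 1500 to 2500 bp. Just outside, within 250 bp of an end, it was 9.77%. That the mark is inside these genes follows from how they were chosen. The minimum of 150 bp also leaves out genes that a peak only grazes at an end. The shares at and just outside the ends thus depend in part on that choice. Stretches farther in are present only in the longer of these genes, so the shares there mix position with gene length.

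H3K4me3 in the same genes lay nearer to the ends. It covered 24.8% of bases within 250 bp inside an end, 39.1% from 250 to 500 bp, 37.7% from 500 to 1000 bp, 23.5% from 1000 to 1500 bp and 13.3% from 1500 to 2500 bp. In the 14965 arm genes of this length without H3K27me1, H3K4me3 covered 37.7%, 49.1%, 37.8%, 12.1% and 5.64% of the same stretches. In marked genes, then, H3K4me3 peaks covered less of the first 500 bp inside an end and more of the stretch beyond 1000 bp than in genes without H3K27me1. Marked and unmarked genes were not matched in length.

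**Figure D3:**
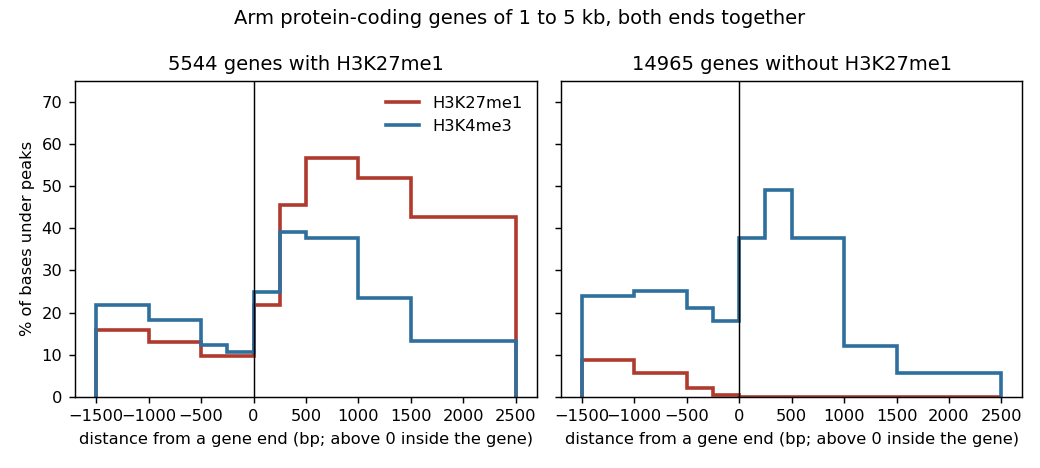
Percentage of bases under H3K27me1 peaks (red) and H3K4me3 peaks (blue) by distance in bp from either end of arm protein-coding genes of 1 to 5 kb, above 0 inside the gene, in 5544 genes with H3K27me1 (left) and 14965 without (right). In marked genes H3K27me1 is highest from 500 to 1000 bp, at 56.6%, and H3K4me3 from 250 to 500 bp, at 39.1%.

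H3K4me3 and H3K27me1 met on many arm genes. Of marked protein-coding genes 61.5% also had at least 150 bp under H3K4me3 peaks, against 80.3% of genes without H3K27me1. On arms the shares were 66.3% of marked and 81.3% of unmarked genes, and in pericentromeres 22.1% of marked and 53.0% of unmarked genes. Arm genes in the lowest, middle and highest of 3 equal groups by H3K27me1 fold had H3K4me3 in 70.0%, 67.5% and 61.4% of cases, and pericentromeric genes in 33.7%, 18.7% and 13.8%. Marks in the same nuclei population need not be on the same nucleosome or in the same cell.

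By peaks, 31.0% of H3K27me1 peaks touched an H3K4me3 peak, 5.73% in pericentromeres and 41.4% on arms. H3K27ac was touched by 18.8% and H3K27me3 by 1.02%, that is by 134 peaks. None of the other three marks was touched by 93.3% of pericentromeric and 55.0% of arm peaks. By sequence, 11.1% of H3K27me1 bases lay under H3K4me3, which covered 18.3% of the span, and 4.58% lay under H3K27ac, which covered 10.1%. For H3K27me3 the share was 0.407% of H3K27me1 bases, with 0.302% of the span under H3K27me3, and it amounted to 27.7% of the H3K27me3 bases.

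The 15 protein-coding genes of highest H3K27me1 fold were all on arms, with folds of 3.90 to 4.52 under 13 peaks. Of all 7370 marked protein-coding genes 6568 lay on arms. AT3G11350 had 4.52 with 87.9% of the gene under peaks, and it also had H3K4me3 with a fold of 3.87. PDC3, a pyruvate decarboxylase of fermentation, had 4.14, at chr5:132705-134782. AGL34, a MADS-box transcription factor gene, had 4.03 and was covered in full at chr5:9392635-9395396. IQD12, of a family of calmodulin-binding proteins, had 4.0, and its peak also reached the pseudogene AT5G03950.

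AT1G59930 ranked between PDC3 and AGL34, with 4.09. AT1G64625 (LONESOME HIGHWAY LIKE 3), of a family of transcription factor genes, had 3.96. WES1 (GH3.5), which conjugates auxin to amino acids, had 3.95, and CVP2, a phosphoinositide phosphatase of leaf vein patterning, had 3.94. AT1G30974 and AT1G30972 shared a peak of 4925 bp with a fold of 3.94, as did AT1G24430 and AT1G24420 a peak of 3059 bp, also at 3.94. AT1G02620 had 3.92, AT2G36710 3.91 and AT3G21330 3.90. Of the 15 genes 7 also had H3K4me3, 6 had at least 90% of their length under H3K27me1 peaks and 0 had H3K27me3. Among all marked arm protein-coding genes 66.3% had H3K4me3 and 9.82% had at least 90% of their length under peaks. H3K27me3 was on 1.47% of all arm protein-coding genes.

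The 15 pseudogenes and transposon genes of highest fold ranged between 3.77 and 5.56, with 8 on arms and 7 in pericentromeres. Of all 3655 marked pseudogenes and transposon genes 942 lay on arms. After AT1G24938, AT2G07699, AT5G31770 and AT5G31753, already named, came AT1G40115 with 4.0 at chr1:15177968-15180024. AT5G03950 and AT1G30975 had the 4.0 and 3.94 of the peaks they share with protein-coding genes. AT3G43251 and AT4G37705 had 3.85 each, AT2G04590 and AT3G42766 3.79 each, AT1G75610 3.78, and AT2G20460, AT2G16000 and AT5G65676 3.77 each. Of these 15, 10 had at least 90% of their length under peaks, and 1, AT1G75610, also had H3K4me3, with a fold of 6.19. Among all marked pseudogenes and transposon genes 68.9% had at least 90% of their length under peaks, and 5.31% had H3K4me3. In all, 6 of the 30 genes in both rankings also had the 150 bp under peaks of the broad list, 3 of each kind.

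Several of these values are equal, as were many folds in the list. The 13130 peaks had 7217 distinct folds, and 7723 peaks (58.8%) shared both fold and q with another peak. Ranks between neighbours that differ in the last digit given are for that reason not an order of the genes.

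Gene lists of cell types were read against the 26.9% of protein-coding genes that were marked. Of 9 genes active in sperm, including the transcription factor gene DUO1, the histone gene HTR10, the gamete fusion gene HAP2 and GEX2, 0 had H3K27me1, while all 9 had H3K4me3, with folds of 4.16 to 7.56, and all 9 had H3K27ac. Among all protein-coding genes 75.2% had H3K4me3, 55.9% had H3K27ac and 1.48% had H3K27me3. 1 of the sperm genes, the tetraspanin gene TET12, also lay under H3K27me3, with a fold of 7.65. Of 16 genes for H3K27me1 and heterochromatin factors, among them ATXR5, ATXR6, the DNA methyltransferase gene MET1 and the remodeller gene DDM1, 0 had H3K27me1, 16 had H3K4me3 and 13 had H3K27ac, to be read against the same shares of all protein-coding genes.

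Of 10 genes of the pollen vegetative cell, the companion of the sperm cells that makes the pollen tube, 7 were marked, with a median fold of 2.14. MYB120, MYB97 and MYB101, transcription factor genes of pollen tube differentiation, had 3.07, 2.68 and 1.69. The MADS-box genes AGL66 and AGL65 had 2.48 and 1.75, the pollen tube receptor kinase gene ANX2 had 2.14 and the pectin methylesterase gene VGD1 had 1.90. ANX1, AGL104 and WRKY34 had none. H3K27me3 lay on 3 of the 10 genes, VGD1 with a fold of 7.10, AGL104 with 4.78 and ANX2 with 4.47. Of the 10 genes 8 had H3K4me3, with folds of 2.5 to 6.18, and whether nuclei of the vegetative cell in the sort had a part in these values was not tested. Of 8 leaf genes 3 were marked, namely LHCB2.1 with 2.07, GUN5 with 2.48 and RCA with 2.48, and 7 had H3K4me3, with folds of 1.80 to 4.86.

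**Figure D4:**
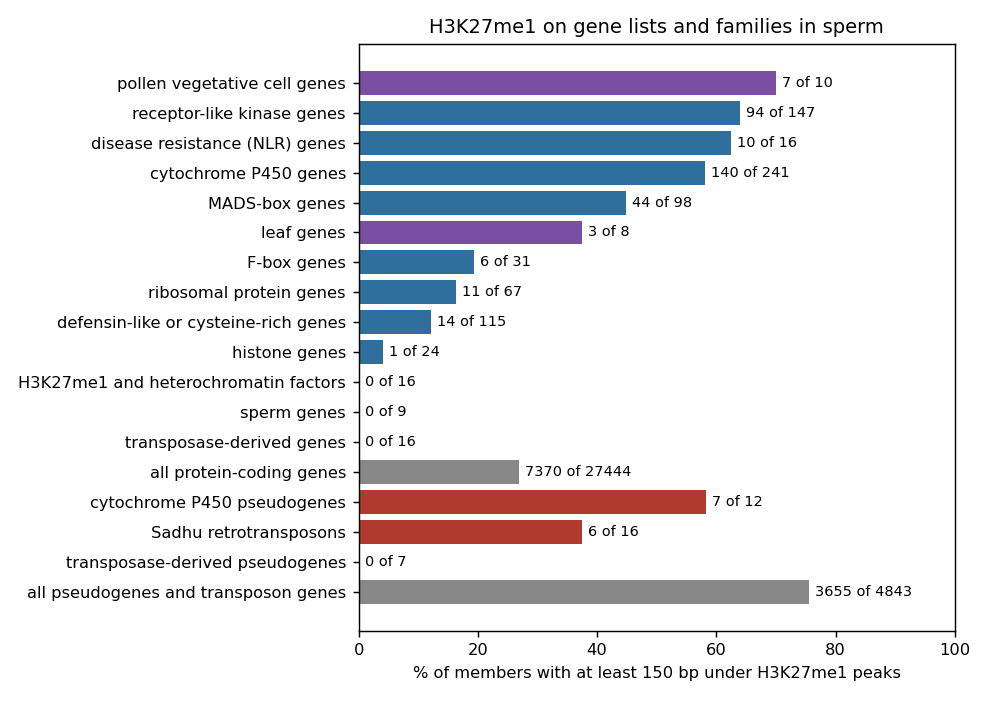
Percentage of members with at least 150 bp under H3K27me1 peaks, with counts, for cell type lists (purple), protein-coding families (blue) and pseudogene families (red), beside all genes of the class (grey). Receptor-like kinase genes reach 94 of 147 and sperm genes 0 of 9, beside 7370 of 27444 protein-coding genes. Families hold only the genes found by words in the annotation.

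Gene families, collected by words in the annotation, spread widely around the 26.9% of all protein-coding genes. Members whose annotation lacks these words were not counted, so each share is that of the genes found and not of a whole family. Among receptor-like kinase genes, which code for cell-surface receptors, 94 of 147 were marked (63.9%), with MRLK (IMK3) at 3.52 and LecRK-V.7 at 3.33. Among disease resistance genes of the NLR class, coding for intracellular immune receptors, 10 of 16 were marked (62.5%), with RPP4 at 3.35 and ADR1 at 3.18. Among cytochrome P450 genes, coding for oxidising enzymes of plant metabolism, 140 of 241 were marked (58.1%), with CYP705A9 at 3.56 and CYP96A13 at 3.55. Of P450 pseudogenes, all on arms, 7 of 12 were marked (58.3%), close to the 56.4% of all arm pseudogenes and transposon genes. Among MADS-box transcription factor genes 44 of 98 were marked (44.9%). AGL34 had 4.03, and the ovule identity gene STK had 3.42 with only 20.1% of the gene under peaks. Most genes of the receptor-like kinase, NLR, P450 and MADS-box families lay on arms. On arms alone their shares were 64.1%, 62.5%, 57.6% and 45.3%.

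F-box genes, marked in 6 of 31 cases (19.4%), were near the share of all protein-coding genes, with the auxin receptor gene AFB2 at 3.26 and FBW2 at 3.14. Smaller shares were found in 3 other families. Ribosomal protein genes were marked in 11 of 67 cases (16.4%), among them PRPL11, for a plastid ribosomal protein, at 2.72. Histone genes were marked in 1 of 24 cases, the H2A gene HTA4 at 2.54. Genes of defensin-like or cysteine-rich peptides were marked in 14 of 115 cases (12.2%), with SCRL9 at 3.27 and SCRL1 at 2.91, and their median length of 598 bp is well below the 2078 bp of all protein-coding genes.

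H3K4me3 did not mirror these shares. It was on 86.4% of receptor-like kinase genes, 81.3% of NLR genes and 73.0% of P450 genes, which were often marked by H3K27me1, and on 91.7% of histone genes, 86.6% of ribosomal protein genes and 10.4% of defensin-like genes, which were not. 

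Transposon-derived genes were not marked alike. Of 16 protein-coding genes and 7 pseudogenes that the annotation describes as derived from transposases, 0 were marked. Among all protein-coding genes 26.9% were marked, and among all pseudogenes and transposon genes 75.5%. On arms, where 14 of the 16 and 6 of the 7 lay, these shares were 25.3% and 56.4%. H3K4me3 was on 87.5% of the 16, against 75.2% of all protein-coding genes. It was on 71.4% of the 7, against 9.75% of all pseudogenes and transposon genes. Of 16 Sadhu elements, short retrotransposons without a coding sequence, 6 were marked. These were SADHU3-1 with 3.42, SADHU5-2 with 3.13, SADHU1-1 with 3.12, SADHU1-3 with 2.51, SADHU7-2 with 2.38 and SADHU9-1 with 2.07. Of the 6 marked elements 5 lay in pericentromeres and 2 had H3K4me3, against 2 and 7 of the 10 unmarked ones. Among all pseudogenes and transposon genes H3K4me3 was on 5.31% of marked and 23.4% of unmarked ones. The H3K4me3 folds were 2.37 and 2.55 in the marked elements and 3.49 to 7.08 in the unmarked ones. These marked elements were both pericentromeric, while the unmarked ones with H3K4me3 lay on arms except SADHU4-1. With so few elements, mark and region cannot be told apart. The Sadhu group was chosen after its annotation had been seen.

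**Figure D5:**
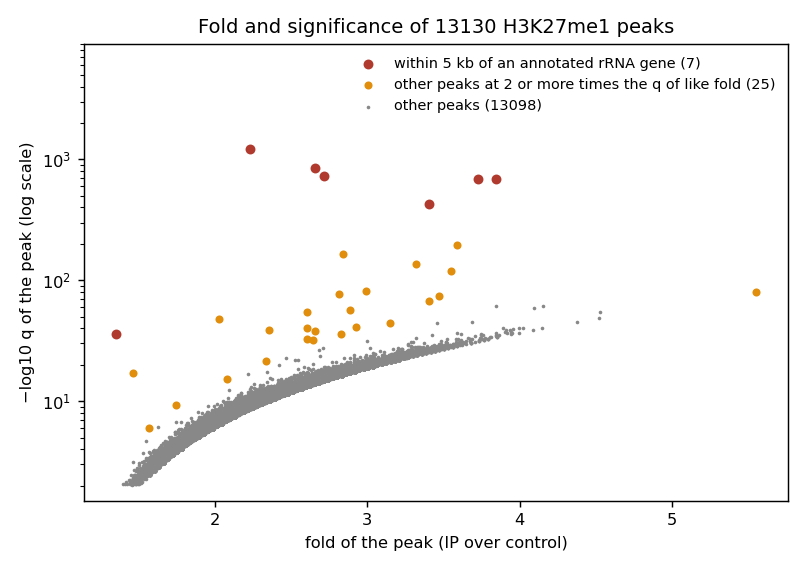
The −log10 q of each of the 13130 H3K27me1 peaks (log axis) against its fold. Most peaks lie on a single curve, and the peaks within 5 kb of annotated rRNA genes (red, 7 peaks) lie above it, up to 1223, as do the other 25 of 32 peaks with at least 2 times the −log10 q of peaks of like fold (orange).

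The significance that the caller gave each peak, as −log10 q, followed the fold closely, with a Spearman's rho of 0.989 over all peaks, both having been computed from the same libraries. A group of 32 peaks had a −log10 q at least 2 times the median of the 200 peaks nearest in fold, and 24 of the 32 were pericentromeric. All 7 peaks within 5 kb of an annotated ribosomal RNA gene were among them. The most extreme was chr2:9430-10296, with a fold of 2.23 and a −log10 q of 1223, and the next was chr3:14201034-14203846, with a fold of 2.65 and a −log10 q of 854. Of the 4 annotated rRNA genes 3 were marked, AT3G41768 with 3.73, AT3G41979 with 3.41 and AT2G01010 with 2.72, while AT2G01020 was not. Peaks covered 100% of AT3G41979 but only 17.4% of AT2G01010 and 8.35% of AT3G41768. The last had 151 bp under its peak, barely above the minimum of 150 bp. rRNA genes are present in many near-identical copies that share reads, so the values there are uncertain. The peak of highest fold, on AT1G24938, was also among the 32, with a −log10 q of 80.6.

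Each of the 6 RNA genes of highest fold shared its peak with at least 1 other annotated gene. The long noncoding RNA gene AT1G04133 had 3.92 under the peak of AT1G02620. AT2G05195, AT2G05205 and AT2G05215 shared 1 peak with a fold of 3.85 in the pericentromere of chromosome 2, and AT2G00460, in the same window from 3000001 to 3500000, had 3.85. The peak of AT2G07699 lies in this window too. It held 102 protein-coding genes, against 35 and 19 in the windows beside it. The −log10 q was 61.5 at AT2G00460 and 34.0 at the shared peak. Whether reads in this window also match sequence elsewhere was not tested. The microRNA gene MIR5642b had 3.84 under a peak within 5 kb of an rRNA gene.

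The broad list of the mark, called by the authors as well, was much smaller and overlapped in part. Its 2433 peaks covered 6.03 Mb, of which 59.2% lay under narrow peaks, and 14.5% of the narrow bases lay under broad peaks. Of the broad peaks 73.8% touched a narrow peak. Over the 1795 that did, the fold of the broad peak and the highest fold of the narrow peaks inside it had a Spearman's rho of −0.151. The cause of this was not tested. Whether the folds and q values of the broad list belong to its coordinates is unsure, and its folds were not used to rank genes.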

How the data were processed

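The data were 2 immunoprecipitations of H3K27me1 from sperm nuclei among 19 samples. Per the submitters' processing notes the tools included MACS2 2.1.0, the peak caller, Bowtie2 2.1.0, the aligner, Trim Galore 0.4.1 and SAMtools 1.3, and the build was TAIR10. Tool settings are not stated there. The authors deposited a narrow and a broad peak list for each mark, over all replicates. Each list gives a fold, the ratio of immunoprecipitation to control computed by the authors, and a significance as −log10 q, also by the authors. The narrow lists the authors deposited also give the summit's offset in bp. No intervals were given, since the lists hold no depth.

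Coordinates are 1-based. Gene names and positions were taken from a RefSeq table of TAIR10.1 without strand, sequence or transposon class, so gene coordinates and sequences are not printed. Summits of H3K4me3 were shifted by up to 5000 bp against the genes in steps of 250 bp, and in 59 of 59 segments of 2 Mb offset 0 placed most summits within 500 bp of a gene end. Pericentromeres were chromosome 1, 13 to 17 Mb, chromosome 2, 2 to 7 Mb, chromosome 3, 11 to 16 Mb, chromosome 4, 3 to 6 Mb, and chromosome 5, 10 to 14.5 Mb. The threshold of 31.1% is 50% of the median over all windows, 62.3%. A peak belonged to the region of its midpoint, and a gene took the highest fold of the peaks that overlapped it by 150 bp.

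Genes named were the 15 of highest fold in each class, marked members of the cell type lists and the highest members of each family, of which 1 is not reported here. Peaks named were the 5 widest and the 5 of highest fold, with the 5 arm windows of highest coverage. RNA genes, runs and rRNA genes were named after their values were seen. The members and lists were chosen with earlier results of these data known. Interval functions were tested on simulated data. Python 3.11.15, numpy 2.4.6, pandas 2.3.3, scipy 1.17.1 and matplotlib 3.10.9 were used.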

Additional observations from a re-analysis of the deposited data

How the results depend on the processing

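No paired analysis was possible because each list covers all replicates of the mark, and no replicate could be left out. Of 39 values under other settings, 7 of them under a setting chosen after seeing the data, 17 stayed within set limits, 20 went past them and 2 reversed, both of these with the broad list. The limits were the 95% binomial interval over peaks for shares, 0.005 for the ratio and rho, and 1.5 times for counts of genes. They served as tolerances only and measure no error between samples, since peaks of a pooled list are not replicates. With the broad list the share of the span under H3K27me1 was 5.06%, and the share of its bases in pericentromeres 24.9%. The ratio of pericentromeric to arm median fold was 0.982 and rho of fold and width −0.216 with that list. It marked 2412 of 27444 protein-coding genes and 461 of 4843 pseudogenes and transposon genes, so both classes had similar shares there. In the narrow list these shares were 26.9% and 75.5%. Of the broad peaks 51.3% touched H3K4me3. The cause was not tested, and whether its folds belong to its coordinates is unsure. With a −log10 q of at least 5 the first 4 values were 19.4%, 54.8%, 1.05 and 0.572, and with a fold of at least 2 they were 18.1%, 56.5%, 1.04 and 0.505. With pericentromere borders moved 500 kb outwards 59.6% of bases were pericentromeric, with borders inwards 42.7% (ratio of folds 1.07), and by summits 29.0% of peaks. The marked protein-coding genes numbered 6220 with that minimum of q and 5240 with that of fold. Asking for 50% of a gene marked 3866 protein-coding genes. H3K4me3 was touched by 22.4% of peaks at an overlap of 50% of the peak and by 26.6% with the broad H3K4me3 list. Without the 32 peaks of high q for their fold, the setting chosen after seeing the data, all 7 values stayed within the limits. Read numbers were not analysed here, so depth cannot be weighed.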
